A study of Homo sapiens with 6 samples.

Results

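The HOX genes encode homeodomain transcription factors and lie side by side in 4 clusters, HOXA to HOXD. They were followed here on 6 Affymetrix arrays from neural stem cells, self-renewing neural precursors made from SA-01, an established line of human embryonic stem cells. Members were all genes whose symbol is HOX, a cluster letter and a number, taken from probe sets annotated with exactly 1 gene symbol, 1 probe set per gene. This gave 27 genes among the 18417 symbols measured that way, and each of the 27 had a single probe set. Of the 39 HOX protein genes in the RefSeq table, 1 of 11 in cluster HOXA, all 10 in HOXB, 7 of 9 in HOXC and all 9 in HOXD were members. The other 12 were not analysed here as single genes, so nothing below describes cluster HOXA beyond HOXA2.

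All cells came from the 1 line SA-01 at passage 14 and were grown in N-2 and B-27 supplemented medium on polyornithine and laminin. Starting 5 h after plating they received for 24 h either the solvent DMSO (0.1%) or X5050 (100 µM), which the series title calls an inhibitor of the repressor REST. The labels do not say whether the X5050 wells held DMSO too, so a difference between treatments may include one of solvent. Each treatment had 3 arrays from 3 independent cultures, and arrays with the same replicate number were read as the same culture. Array medians lay between 5.68 and 5.75 on the log2 scale, and any pair of arrays correlated at 0.984 to 0.993 over 33297 probe sets. All 21 measured neural stem cell markers were above the lower of the background references described below on every DMSO array, with SOX2 at 10.74, 10.91 and 11.00 and PAX6 at 10.51, 10.90 and 10.98. Of 23 mesenchymal and matrix markers 20 were above it too. Of 9 pluripotent cell markers 5 were, among them DPPA4 (8.38, 8.24 and 7.98) and GDF3 (8.54, 8.66 and 7.66). PRDM14, DPPA2, ZFP42 and L1TD1 were below it on each DMSO array. All 12 neuron markers and 8 of 12 glial markers were above the lower reference. So were 6 of 9 neural crest and 6 of 10 paraxial mesoderm markers, against 71.9% of all tested probe sets. Above the higher reference were 12 of 21 neural stem cell, 10 of 12 neuron, 3 of 23 mesenchymal and 2 of 12 glial markers. Also above it were 1 of 9 pluripotent, 0 of 9 neural crest and 0 of 10 paraxial mesoderm markers, against 24.7% of all tested probe sets. In such bulk samples more cells of a type and more RNA per cell cannot be told apart.

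In vertebrate embryos the order of HOX genes along a cluster matches the order of their expression along the body. Genes with low numbers, at the 3′ end, begin in the hindbrain, those with middle numbers mark the cervical to thoracic spinal cord, and those with the highest numbers, at the 5′ end, mark the lumbar cord and tail, whereas forebrain and midbrain express none. Retinoic acid, FGF and WNT signals and the CDX factors switch the clusters on from the 3′ end, trithorax proteins maintain active genes, and Polycomb complexes hold the other genes silent. Neural precursors are known to keep the HOX code of their position in culture. HOX proteins bind DNA together with PBX, MEIS and PKNOX proteins, homeodomain partners of the TALE class.

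Sequences are shown for genes on which the results turn and whose start-site window is in the RefSeq table of the assembly GRCh38.p14, which held 11 of the 27 members. HOXA2 was bright and HOXB1 was not, HOXC5 differed between cultures, and HOXB-AS3 is the non-coding RNA gene whose span in RefSeq overlaps HOXB5 and HOXB6. Each run covers 250 bases before and 50 after the annotated start, and capitals mark CCAAT and TGATNNAT, the latter a pattern of joint PBX and HOX binding, on either strand. No marked match shares a base with another.
HOXA2 (chr7:27102634-27102933, minus strand): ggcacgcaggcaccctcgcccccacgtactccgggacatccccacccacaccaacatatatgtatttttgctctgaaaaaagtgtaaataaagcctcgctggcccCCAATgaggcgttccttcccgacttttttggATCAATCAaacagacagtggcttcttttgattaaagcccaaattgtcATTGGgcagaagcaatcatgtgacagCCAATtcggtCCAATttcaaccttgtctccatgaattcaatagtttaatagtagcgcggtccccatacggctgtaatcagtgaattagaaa
HOXB1 (chr17:48530962-48531261, minus strand): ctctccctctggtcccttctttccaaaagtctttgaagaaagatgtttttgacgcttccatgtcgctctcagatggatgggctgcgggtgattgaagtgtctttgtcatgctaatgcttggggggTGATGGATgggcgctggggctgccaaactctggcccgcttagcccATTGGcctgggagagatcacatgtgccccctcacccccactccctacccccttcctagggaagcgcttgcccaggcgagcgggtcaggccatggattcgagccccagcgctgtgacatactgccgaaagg
HOXC5 (chr12:54016638-54016937, plus strand): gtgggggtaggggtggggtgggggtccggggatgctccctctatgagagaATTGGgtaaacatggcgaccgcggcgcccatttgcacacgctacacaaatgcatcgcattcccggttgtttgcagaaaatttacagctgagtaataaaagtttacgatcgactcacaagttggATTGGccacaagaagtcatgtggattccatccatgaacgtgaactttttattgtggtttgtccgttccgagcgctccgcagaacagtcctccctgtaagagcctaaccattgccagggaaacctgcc
HOXB-AS3 (chr17:48595708-48596007, plus strand): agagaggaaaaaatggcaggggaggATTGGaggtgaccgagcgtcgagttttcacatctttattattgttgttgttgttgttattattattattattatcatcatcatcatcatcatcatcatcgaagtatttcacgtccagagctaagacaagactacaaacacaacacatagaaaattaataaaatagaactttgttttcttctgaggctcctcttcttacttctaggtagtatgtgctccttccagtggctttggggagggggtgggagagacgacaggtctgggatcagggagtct

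The HOXA2 window held 4 matches to CCAAT and 1 to TGATNNAT, HOXB1 held 1 of each, HOXC5 held 2 and 0, and HOXB-AS3 held 1 and 0. CCAAT was found in 9 of the 11 member windows and in 34.6% of all 35116 promoter windows of the same length. TGATNNAT was in 3 of the 11 (HOXA2, HOXB1 and HOXD11) and in 7.4% of all. The letters CAGCACC and GGACAG, from the left and the right part of the REST element, were in 2 and 3 of the 11 windows and in 7.75% and 20.6% of all, and in none of the 4 windows printed. TATAAA was in 1 of the 11 (HOXD13), against 11.5%. CG pairs numbered 4 (HOXD4) to 36 (HOXD1) per window with a median of 23, beside a median of 14 over all windows. The HOXC5 window is also that of HOXC4 in this table, so both genes are annotated with the same start.

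The HOXB cluster also holds microRNA genes, MIR10A between HOXB4 and HOXB5 and MIR196A1 between HOXB9 and HOXB13. Their mature products are shown because both families are known to target HOX transcripts, with capitals at the seed, bases 2 to 8.
hsa-miR-10a-5p (chr17:48579904-48579926, minus strand): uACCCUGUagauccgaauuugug
hsa-miR-196a-5p (chr17:48632532-48632553, minus strand): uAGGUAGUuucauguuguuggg

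The array measures the hairpin genes, not these mature forms. MIR10A read 2.80, 2.95 and 2.74 with DMSO and MIR10B 2.48, 2.53 and 2.47, all below the lower quartile of their arrays (4.08 to 4.12). MIR196A1 read 5.65, 5.70 and 5.56 and MIR196A2 3.64, 3.63 and 3.75. None of the 4 hairpin genes changed with X5050 in limma, with adjusted p from 0.843 to 0.979.

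With DMSO, HOXA2 and 5 of 10 HOXB genes (HOXB2 and HOXB6 to HOXB9) were above both background references described here, and 0 of 7 HOXC and 0 of 9 HOXD genes were. Probe sets bind with different strength, so heights of different genes were not set against each other. Each gene was instead read against genes that neural cells are not known to express, namely the 95th percentile of 360 olfactory receptor probe sets on the same array (4.96 to 5.06 with DMSO). A stricter reference was the 95th percentile of 97 probe sets of keratin-associated proteins and bitter taste receptors (7.39 to 7.73). On all 3 DMSO arrays 17 of the 27 HOX genes were above the first, against 71.9% of all tested probe sets, and 6 were above both, against 24.7% above the stricter one. By this measure the HOX genes as a group were not brighter than other genes. The 6 were HOXA2, HOXB2, HOXB6, HOXB7, HOXB8 and HOXB9. For the other 11 genes above the first reference, at least 1 array lay between the references, where signals cannot be told from those of the brighter unexpressed genes.

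**Figure D1:**
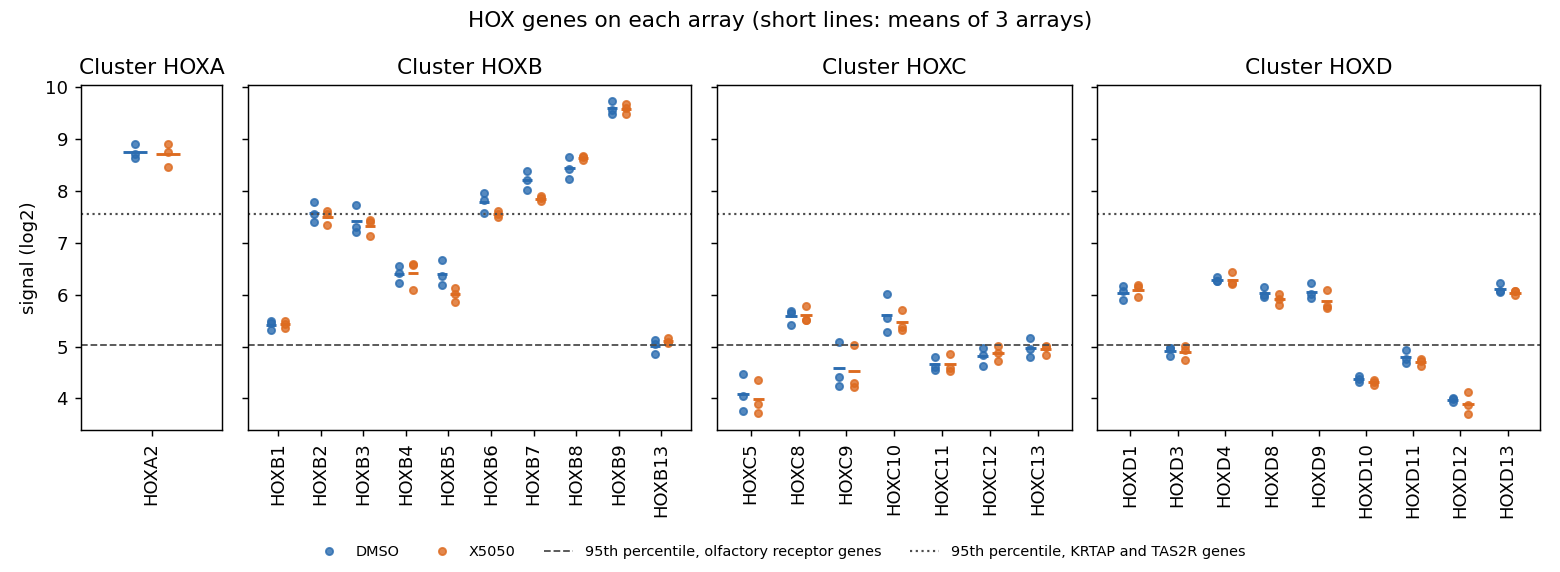
Signal (log2) of the 27 HOX genes on each array, by cluster and number, with DMSO in blue and X5050 in orange. Points are arrays, short lines the means of 3 arrays, and the horizontal lines the mean of each background reference over the DMSO arrays. HOXA2 and HOXB6 to HOXB9 stand above the upper line with DMSO, whereas all HOXC and HOXD genes stay under it.

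HOXB9, a factor of the thoracic region, read 9.48, 9.57 and 9.74 in the 3 DMSO cultures and lay between the 91.5th and 93.0th percentile of all probe sets. HOXA2, which patterns the hindbrain and the second branchial arch, read 8.64, 8.70 and 8.90. HOXB8 read 8.43, 8.24 and 8.65. These 3 genes were well clear of both references on every array. HOXB7 read 8.01, 8.20 and 8.39, and its neighbour HOXB6 read 7.57, 7.83 and 7.97. HOXB2, a hindbrain gene near the 3′ end, read 7.55, 7.41 and 7.79, which was only just above the stricter reference. HOXB3 read 7.31, 7.20 and 7.74 and passed the stricter reference on 1 of the 3 arrays. The middle genes HOXB4 (6.23, 6.56 and 6.42) and HOXB5 (6.18, 6.36 and 6.66) were above the first reference only.

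At the outer ends of HOXB the signal was low. HOXB1, which acts in a single hindbrain segment, read 5.46, 5.31 and 5.49, close above the first reference. HOXB13, at the 5′ end beyond a large gap and known from the prostate and the tail region, read 5.04, 4.86 and 5.12 and passed the first reference on 2 of the 3 arrays. PRAC1, the gene between MIR196A1 and HOXB13, was below the reference on each DMSO array (3.70, 3.83 and 4.02). In HOXB, then, the genes above both references were HOXB2, only just, and the unbroken run HOXB6 to HOXB9. HOXB1, HOXB3, HOXB4 and HOXB5 passed the first reference on all 3 arrays but not the stricter one on all 3, and HOXB13 passed neither on all 3.

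In cluster HOXC 2 of 7 genes, HOXC8 and HOXC10, were above the first reference on all DMSO arrays, and 0 were above the stricter one. HOXC10, a lumbar gene, read 5.55, 6.02 and 5.28 and HOXC8, a gene of the lower neck and thorax, 5.42, 5.68 and 5.64. HOXC5, HOXC11 and HOXC12 passed it on no DMSO array, and HOXC9 and HOXC13 on 1. In cluster HOXD 5 of 9 were above the first reference, with means between 6.03 and 6.29. These were HOXD1 (6.16, 5.89 and 6.06), HOXD4 (6.26, 6.35 and 6.26), HOXD8 (5.95, 6.16 and 5.99), HOXD9 (6.01, 5.93 and 6.22) and HOXD13 (6.08, 6.05 and 6.22). HOXD3 passed it on 1 array, and HOXD10, HOXD11 and HOXD12 passed it on none. Signals of HOXD1 at one end and of the digit gene HOXD13 at the other thus lay in the same band between the references.

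By number rather than cluster, 7 of 8 genes numbered 1 to 4, 6 of 7 numbered 5 to 8 and 4 of 12 numbered 9 to 13 were above the first reference. Above both were 2, 3 and 1 of them, HOXB9 being the 1 with a number of at least 9. The members hold only 1 HOXA gene, so these counts rest mainly on HOXB. With X5050 the same 17 genes were above the first reference on all 3 arrays. The spread between cultures was small for most genes: the SD over the 3 DMSO arrays ran from 0.043 (HOXD12) to 0.45 (HOXC9), with a median of 0.14 over the 27 genes and 0.13 over all tested probe sets.

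The partners and other regional factors give the setting. Of all tested probe sets 71.9% were above the first reference and 24.7% above the stricter one, the shares beside which these counts stand. All 7 measured TALE genes of 9 listed were above the first reference, and PBX3 (10.17, 10.35 and 10.35), MEIS2 (10.09, 10.08 and 10.25) and MEIS1 (9.65, 9.70 and 9.94) were above both. Of 19 measured forebrain factors 12 were above the first reference and 0 above both. The highest means among the 19 were those of GSX2 (7.12, 6.97 and 7.23) and SIX6 (6.76, 6.48 and 6.72). Some genes are in more than 1 list, so counts by region overlap. GSX2 is also a listed dorsal factor, and GBX2 is in both the midbrain and isthmus list and the hindbrain list. Of the cortical genes EMX1 (6.13, 6.06 and 6.20) passed the first reference on each array. LHX2 (4.68, 4.89 and 4.89) and EMX2 (3.74, 3.84 and 3.62) passed it on none. SIX3 passed it on 2 of the 3 arrays. All 11 midbrain and isthmus factors were above the first reference and 0 above both, the isthmus gene GBX2 reading 7.48, 7.33 and 7.53 and the midbrain gene EN2 6.82, 6.95 and 6.84. Of 9 measured hindbrain factors outside the clusters 8 were above the first and 0 above both. The hindbrain and spinal cord factor IRX3 read 6.63, 6.63 and 6.87.

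Along the other axis of the neural tube, 11 of 14 measured dorsal factors were above the first reference, against 71.9% of all tested probe sets. PAX3, a dorsal factor, read 9.41, 9.19 and 9.95, and was the 1 of the 14 above both references. Of 14 measured intermediate and ventral factors 11 were above the first reference as well, and PAX6 was the 1 above both. DBX2, a factor of the intermediate tube, read 6.84, 7.80 and 7.90. The ventral factors NKX2-2 and OLIG2 were below the first reference on each DMSO array. The ventral genes NKX6-1 (6.13, 6.15 and 6.15) and SHH (5.77, 5.85 and 5.80) were above it on each. Of the genes that induce HOX clusters, 9 of 10 caudal inducers passed the first reference and 0 both. GDF11 had the highest mean of the 10 (7.54, 7.59 and 7.87) and passed the stricter reference on all but the first of these arrays. CDX2, which drives trunk HOX genes, read 5.77, 5.47 and 5.73, and the caudal mesoderm factor TBXT 5.11, 5.29 and 5.28. CDX2 and TBXT thus lay between the references on each DMSO array, and CDX4 was below the first reference on each. Of 15 measured retinoic acid genes 10 passed the first reference and 0 both. The retinol dehydrogenase RDH10 read 8.05, 7.14 and 7.74 and passed the stricter reference on 2 arrays, and the receptor RARB read 6.94, 7.56 and 7.57 and passed it on 1.

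**Figure D2:**
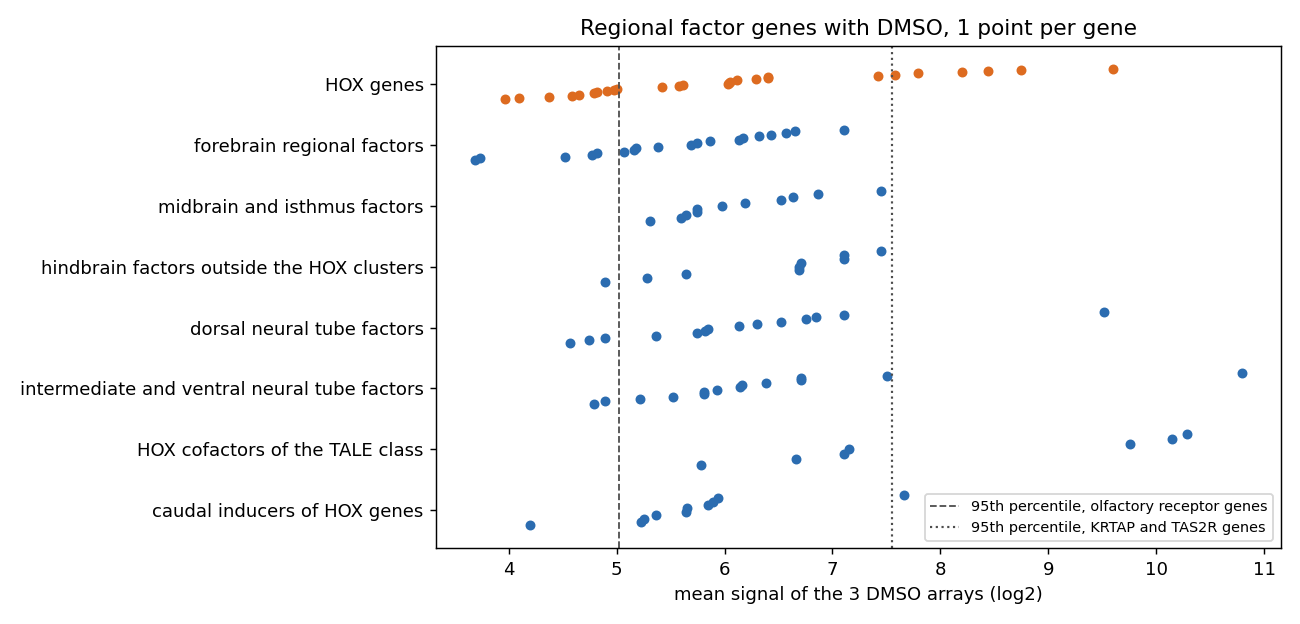
Mean signal (log2) of the 3 DMSO arrays for HOX genes (orange) and 7 lists of regional genes (blue), 1 point per gene, spread vertically only for legibility. The dashed and dotted lines are the background references. PAX6 (10.80), PBX3 (10.29) and PAX3 (9.52) lie right of both lines, and no forebrain, midbrain or hindbrain factor outside the clusters does.

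X5050 was then compared with DMSO for each HOX gene, a question about whether regional identity genes moved while the REST inhibitor was present. No HOX gene passed an adjusted p of 0.05 in limma, 0 of 27 without the replicate block, where 0% of all 19460 tested probe sets passed, and 0 of 27 with it, where 0.498% did. At an unadjusted p under 0.05 HOXB5 and HOXB7 were lower without the block (2 of 27, against 4.88% of all probe sets in that direction), and HOXB5, HOXB6 and HOXB7 with it (3 of 27, against 7.48%). None was higher at that level in either fit, where 7.06% of all probe sets were with the block. The largest differences were thus on neighbouring genes in the middle of HOXB, and all were small.

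HOXB5 read 6.18, 6.36 and 6.66 with DMSO and 5.86, 6.02 and 6.13 with X5050 in cultures 1, 2 and 3. Every X5050 value was under every DMSO value. The log2 change was -0.40 (SE 0.14, n = 3 per treatment), a level 1.32-fold lower, with a limma adjusted p of 0.456 without the block and 0.108 with it. HOXB7 read 8.01, 8.20 and 8.39 with DMSO and 7.86, 7.81 and 7.90 with X5050. Here too the treatments did not overlap. Its change was -0.35 (SE 0.11, 1.27-fold lower, limma adjusted p = 0.412, and 0.160 with the block).

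HOXB6, which lies between HOXB5 and HOXB7, read 7.57, 7.83 and 7.97 with DMSO and 7.49, 7.55 and 7.60 with X5050. It was lower in each culture, by -0.073, -0.29 and -0.36, although the X5050 value of culture 3 exceeded the DMSO value of culture 1. The mean change was -0.24 (SE 0.11, limma adjusted p = 0.579, and 0.294 with the block). HOXB-AS3, the antisense RNA gene overlapping HOXB5 and HOXB6, read 7.10, 7.60 and 7.41 with DMSO and 6.87, 7.14 and 7.07 with X5050. Its change was -0.34 (SE 0.14, limma adjusted p = 0.510, and 0.141 with the block). Whether its probe set and those of HOXB5 and HOXB6 measure separate transcripts was not tested.

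HOXB8 and HOXB9, the next genes toward the 5′ end, gave no such lower values. HOXB8 read 8.43, 8.24 and 8.65 with DMSO and 8.65, 8.61 and 8.67 with X5050, so it was higher in each culture but overlapped between treatments. Its change was 0.20 (SE 0.11, limma adjusted p = 0.669, and 0.406 with the block), and 0.10 without the DMSO array of culture 2. HOXB9 read 9.61, 9.48 and 9.67 with X5050, within the range of its DMSO values, with a change of -0.011 and a 95% interval from -0.25 to 0.22. The difference between the changes of HOXB5 to HOXB7 and those of HOXB8 and HOXB9 was not tested.

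Toward the 3′ end the changes were near 0 on average and mixed across cultures. HOXB4 was 0.35 higher in culture 1, 0.024 higher in culture 2 and -0.33 in culture 3, for a mean of 0.015. HOXB3 stood at -0.18, 0.20 and -0.30, HOXB2 at 0.00056, -0.074 and -0.19, and HOXA2 at 0.11, -0.25 and 0.011. The cultures disagreed in sign for each of these genes. HOXD9 had the fifth smallest p, with 6.01, 5.93 and 6.22 with DMSO and 6.09, 5.78 and 5.74 with X5050 (change -0.18, SE 0.12, limma adjusted p = 0.744), and its paired change without culture 3 was -0.036. Among all 27 genes 18 were below 0 and 9 above, where 47.4% of all tested probe sets were below 0. The median over the 27 genes was -0.062, beside a median of 0.0092 over all tested probe sets.

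Treatments did not overlap for 2 HOX genes with X5050 lower (HOXB5 and HOXB7), where 7.41% of all probe sets did so, and for 0 with X5050 higher, against 7.51%. X5050 was lower in all 3 cultures for 6 HOX genes, HOXB5, HOXB6, HOXB7, HOXC5, HOXD10 and HOXD11, against 17.5% of all probe sets, and higher in all 3 for HOXB8 and HOXB13, against 18.1%. These shares of the 27 genes were near those of all probe sets or differed from them by few genes. The 95% intervals of the 27 changes ran from -0.72 at the lowest to 0.58 at the highest in the fit without the block. No single interval thus reached a doubling or a halving of signal, which are 1 and -1 on this scale.

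**Figure D3:**
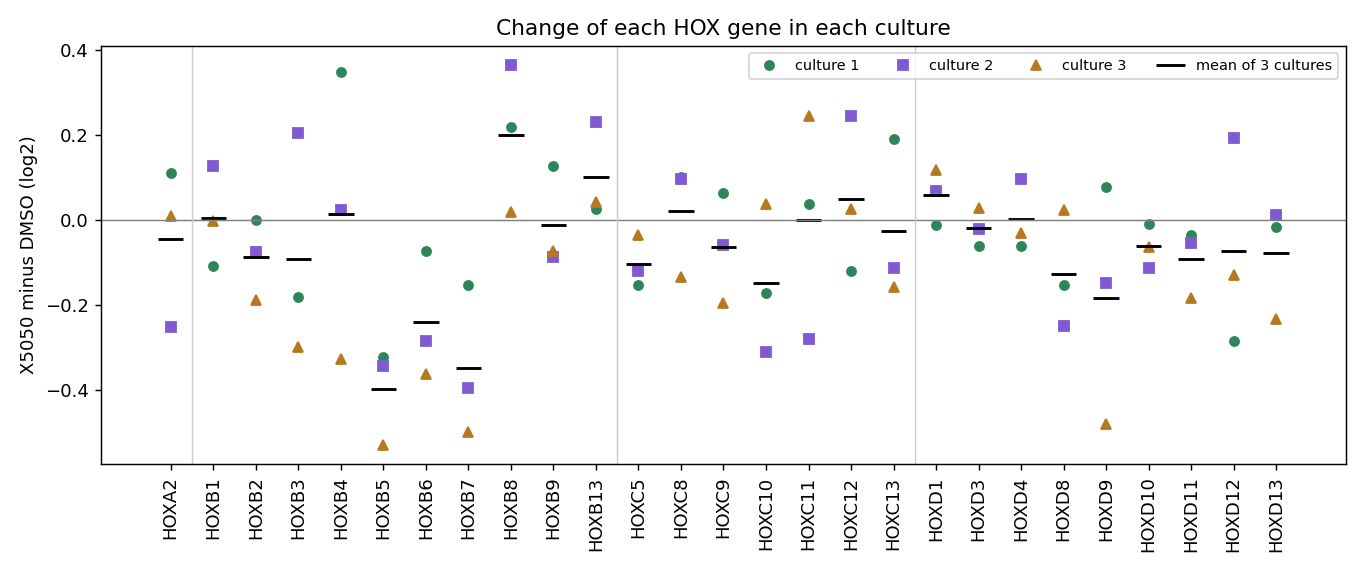
Signal with X5050 minus signal with DMSO (log2) for each HOX gene in each of the 3 cultures (symbols), with the mean of the 3 as a black line. Vertical lines separate the clusters. HOXB5, HOXB6 and HOXB7 lie below 0 in every culture and HOXB8 above 0, and the means of all genes lie between -0.40 and 0.20.

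The cofactors and chromatin regulators of HOX genes showed no adjusted call either. Beside the counts above 0 that follow, 47.4% of all tested probe sets were below 0. Of 7 TALE genes 6 were above 0 (median 0.096) and 0 passed in either fit, nor did any have an unadjusted paired p under 0.05 in limma, MEIS1 standing at 0.19 (SE 0.16) and PKNOX1 at -0.19 (SE 0.105). Of 20 measured Polycomb genes 0 passed and 1 was higher at an unadjusted paired p under 0.05 in limma, with a median of 0.043 and 13 above 0. That 1 was JARID2, a subunit that guides the methylating complex, which stood at 0.23 (paired limma adjusted p = 0.292), and the catalytic subunit EZH2 at 0.019. Of 17 trithorax and demethylase genes 0 passed, with 2 higher and 1 lower at the unadjusted level (median 0.0175), beside 7.06% and 7.48% of all probe sets in that fit, a difference of few genes. The 2 were the methyltransferases KMT2A (0.27, paired limma adjusted p = 0.226) and KMT2C (0.42, paired limma adjusted p = 0.108), and AFF1, a partner of KMT2A in leukaemia fusions, was the 1 lower (-0.26).

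Among 15 measured retinoic acid genes 0 passed, 1 was lower at an unadjusted paired p under 0.05 in limma, and 7 were above 0 (median -0.018). The 1 was RARB, a receptor gene that retinoic acid itself induces. It read 6.94, 7.56 and 7.57 with DMSO and stood at -0.32 with X5050 (paired limma adjusted p = 0.160). Of the 10 caudal inducers 0 passed, also unadjusted, and 5 were above 0, GDF11, which acts on trunk HOX genes, standing at -0.21. No forebrain, midbrain, hindbrain, dorsal or ventral regional factor passed in either fit, and 2 of them, the dorsal factor MSX2 (-0.29) and the ventral signal SHH (-0.24), were lower at an unadjusted paired p under 0.05 in limma. Of the 19 forebrain factors 17 were above 0 with a median of 0.063, and of the 11 midbrain factors 5 were, with a median of -0.0011. Over all tested probe sets 47.4% were below 0, and 7.48% were lower at an unadjusted paired p under 0.05 in limma.

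The marker lists of the cell types that the cultures could hold had 0 calls without the block and 4 in the paired fit, where 0.498% of all probe sets passed. The 4 were the matrix proteoglycan gene LUM (-1.09, paired limma adjusted p = 0.0386), the glial gap junction gene GJA1 (-0.61, 0.0444), the neural stem cell marker LIX1 (-1.38, 0.0177) and the synaptic gene SNAP25 (0.66, 0.0328). Their limma adjusted p without the block was 0.629, 0.667, 0.172 and 0.366. Of the 23 mesenchymal and matrix markers 16 were below 0 and 7 above (median -0.14), where 47.4% of all tested probe sets were below 0. THY1 (0.32) and PDGFRB (0.22) were among the 7. The mean of the list was 7.49, 6.56 and 6.54 with DMSO and 7.16, 6.35 and 6.48 with X5050 in cultures 1, 2 and 3. Trunk mesenchyme expresses HOX genes as well. The part of these markers in the lower HOXB5, HOXB6 and HOXB7 signals was not tested.

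The HOX genes that passed a test of differences between cultures were both in cluster HOXC. In a model with treatment and culture, an F test in limma asked whether the 3 cultures differed by more than the residual spread. HOXC9 (F = 30.7, limma adjusted p = 0.0149) and HOXC5 (F = 20.8, limma adjusted p = 0.0311) passed, 2 of 27, against 2.93% of all tested probe sets. HOXC5 did not pass after quantile normalization (limma adjusted p = 0.0546). With dim probe sets left out both genes dropped out of the test and 0 HOX genes passed. At an unadjusted p under 0.05 HOXC10, HOXB5 and HOXB2 joined them, 5 of 27, against 15.6%.

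HOXC9, which marks thoracic levels and specifies thoracic motor columns, read 5.10 and 5.04 in culture 2 with DMSO and X5050. It read 4.23 and 4.30 in culture 1 and 4.42 and 4.23 in culture 3. Both arrays of culture 2 were above the other 4, and the culture means spanned 0.80. HOXC5, a gene of cervical levels, read 4.48 and 4.36 in culture 2, 4.04 and 3.89 in culture 1 and 3.76 and 3.72 in culture 3, a span of 0.68. Both genes were dim, HOXC5 below the first reference on every array and HOXC9 above it only with DMSO in culture 2.

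HOXC10 read 6.02 and 5.71 in culture 2 against 5.55 and 5.38 in culture 1 and 5.28 and 5.32 in culture 3 (F = 11.5, limma adjusted p = 0.0913). HOXC8 read 5.68 and 5.78 in culture 2, and its other 4 values were 5.42 to 5.64. So 4 of the 7 HOXC genes, HOXC5, HOXC8, HOXC9 and HOXC10, had both arrays of culture 2 above the other 4 arrays, although HOXC8 and HOXC10 did not pass the test. The share of all probe sets with this order was not counted, so whether HOXC stands out in it is not known. HOXC11, HOXC12 and HOXC13, at the 5′ end, were highest in culture 3 and did not pass (adjusted p from 0.527 to 0.795 in limma). Without culture 2 HOXC9 (F = 0.23, limma adjusted p = 0.897) and HOXC5 (F = 3.92, 0.412) no longer passed, and without culture 3 HOXC5 did not (F = 14.7, 0.151).

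**Figure D4:**
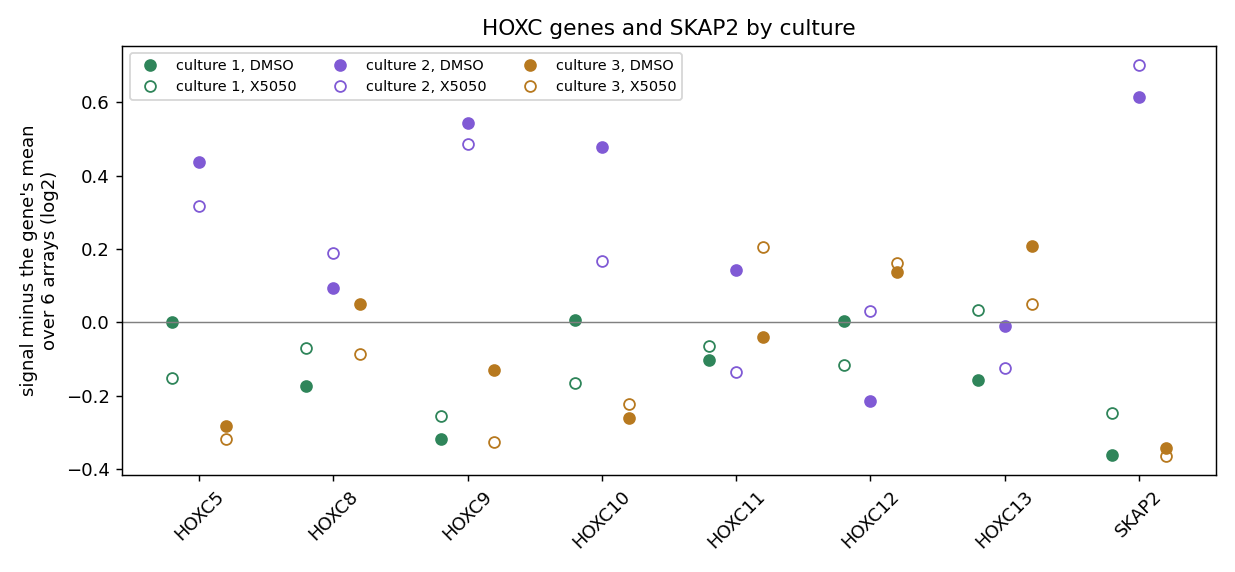
Signal minus the gene's own mean over the 6 arrays (log2) for the HOXC genes and SKAP2, by culture (colour) and treatment (filled for DMSO, open for X5050). Both culture 2 points are the highest for HOXC5, HOXC8, HOXC9, HOXC10 and SKAP2, and not for HOXC11 to HOXC13. SKAP2 lies beside cluster HOXA and is shown as the 1 of 13 measured cluster neighbours that passed the culture test. The share of all probe sets with this order was not counted.

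Of the 13 measured genes of the list of cluster neighbours 1 passed the culture test. It was SKAP2, an adaptor protein gene beside cluster HOXA, which read 6.98 and 7.07 in culture 2, 6.01 and 6.12 in culture 1 and 6.03 and 6.00 in culture 3 (F = 55.7, limma adjusted p = 0.00441). Of the 10 HOXB genes 9 had their highest culture mean in culture 3, and HOXB4 had it in culture 2. The spans were 0.11 to 0.37. No HOXB gene passed the culture test, and the share of all probe sets highest in culture 3 was not counted. HOXB5 averaged 6.02, 6.19 and 6.40 in cultures 1, 2 and 3 (F = 5.54, limma adjusted p = 0.260) and HOXB2 7.55, 7.37 and 7.70 (F = 4.41, 0.320). In cluster HOXD the spans were 0.044 to 0.23, and 0 of 9 genes had an unadjusted p under 0.05.

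Other genes differed between the cultures as well. The mesenchymal list had its highest mean in culture 1, not in culture 2. Of its 23 genes 11 passed the culture test, against 2.93% of all tested probe sets. TWIST2, OSR1 and TCF21 were not highest in culture 1. Also past the test were 4 of 12 neuron, 2 of 12 glial, 2 of 9 neural crest and 1 of 21 neural stem cell markers. Of 17 trithorax and demethylase genes 1 passed, MLLT3 (limma adjusted p = 0.0410), with both arrays of culture 2 highest. With DMSO and X5050 MLLT3 read 10.23 and 10.12 in culture 2, 9.48 and 9.51 in culture 1 and 9.96 and 9.73 in culture 3. Of the regional genes PAX3 was highest in culture 3 (limma adjusted p = 0.0279). DBX2 (limma adjusted p = 0.0483) and RARB (0.0390) were lowest in culture 1, with cultures 2 and 3 close together. With DMSO and X5050 DBX2 read 6.84 and 7.17 in culture 1, 7.80 and 7.67 in culture 2 and 7.90 and 7.64 in culture 3. RARB read 6.94 and 6.68, 7.56 and 7.31, and 7.57 and 7.12 in the same order. The retinoid reductase DHRS3 (limma adjusted p = 0.0221) was highest in culture 3. Whether these differences have a part in those of the HOX genes was not tested.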

How the data were processed

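Total RNA (100 ng) was labelled by the Affymetrix whole transcript protocol, per the labels, 1 array per sample. Values were deposited as log2 signals, 1 per probe set. RMA and Partek are named in the submitters' processing notes, their versions not given in the sources used here. Of 33297 probe sets 19460 carry 1 gene symbol and were tested. Groups and replicate numbers come from the titles.

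The treatments were compared in limma 3.58.1 (R 4.3.3; lmFit and eBayes, two-sided, Benjamini-Hochberg over 19460 probe sets, adjusted p under 0.05), with treatment as the only term and, as an alternative, the replicate number as a block. The pairing rests on the design text, in which each independent culture got both treatments. As a check, after subtracting group means, the 3 pairs sharing a number had r of 0.365, 0.298 and 0.255, and the other pairs -0.236 to -0.052. The culture test is the F test of the replicate terms. Plots used matplotlib 3.10.9. The fits were tested on simulated data.

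The values carry no detection measure used here. The number of arrays limits precision, and RMA compresses changes of dim probe sets. Values on every array were to be given for HOX genes above the first reference (at most 16), the 5 with the largest F and the 5 with the smallest p in each fit. For the lists up to 4 genes by p or level were to be named, and any others were named after their values were seen. HOXB3, HOXB8, HOXB9, HOXB13 and MIR genes follow from cluster position. Members and lists were chosen with earlier results of these data known. Alternatives were other normalization, a filter on dim probe sets, a per-array median where a symbol has several probe sets, a trended prior, other references and leaving out arrays or cultures.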

Additional observations from a re-analysis of the deposited data

How the results depend on the processing

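The count of HOX genes past the threshold for X5050 was 0 under all 15 alternatives, among them the replicate block (0 of 27) and each array left out, and 0 in the paired fit without each culture. HOXB5, HOXB6, HOXB7, HOXB8 and HOXD9 kept their sign in each of these fits. With 1 array left out or another setting and no block HOXB5 ranged from -0.51 to -0.27 (adjusted p from 0.333 to 0.761 in limma) and HOXB7 from -0.44 to -0.25 (0.291 to 0.767). With the block HOXB5 ranged from -0.44 to -0.33 (adjusted p from 0.0680 to 0.447 in limma) and HOXB7 from -0.45 to -0.27 (0.0881 to 0.580). Without the block HOXB6 ranged from -0.35 to -0.15, HOXB8 from 0.10 to 0.31 and HOXD9 from -0.29 to -0.10, and with it from -0.32 to -0.18, from 0.12 to 0.29 and from -0.31 to -0.036. The 3 block fits with quantile normalization, with arrays centred on their medians or without dim probe sets were chosen after seeing the data. The count of HOX genes past the culture test, 2, was 1 after quantile normalization, where HOXC5 did not pass (adjusted p = 0.0546 in limma), and 0 without dim probe sets, since HOXC5 and HOXC9 are themselves dim and were left out. With 1 culture left out it was 0 to 2. The count above the first reference, 17, was 6 with the stricter reference. Over all probe sets the X5050 count was 0 without and 97 with the block, 51, 99 and 182 in those 3 block fits in the order quantile, centred and without dim probe sets, and 0 (without culture 3) to 346 (without culture 1) with 1 culture left out, where 1 residual degree of freedom is left. Without array 1 of DMSO it was 1. Signal over background limits what can be read for genes between the references.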

Other observations

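1 probe set annotated to both HOXC6 and HOXC4 was outside the members, since it names more than 1 gene. It read 6.66 and 6.28 in culture 2 with DMSO and X5050, 5.96 and 5.86 in culture 1 and 5.90 and 5.76 in culture 3. Both culture 2 values were above the other 4, the order also seen for HOXC5, HOXC8, HOXC9 and HOXC10. The share of all probe sets with this order was not counted. For this shared probe set the X5050 minus DMSO difference was -0.10, -0.37 and -0.14 in cultures 1, 2 and 3.

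HIBADH, a mitochondrial dehydrogenase gene in the list of cluster neighbours, read 8.17, 8.33 and 8.24 with DMSO and 8.60, 8.48 and 8.71 with X5050. Its change of 0.35 (SE 0.095) did not pass in limma (adjusted p = 0.363, and 0.160 with the replicate block). It had the smallest paired p of the 13 measured neighbours. X5050 lay wholly above DMSO, as it did for 7.51% of all tested probe sets. SNX10, another of these neighbours, stood at 0.24 (paired limma adjusted p = 0.250). It was higher in each culture, as were 18.1% of all tested probe sets.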
